A study of Mus musculus with 8 samples.

Results

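Map3k5, Ripk1, Ikbkg and Tnip1 encode proteins through which cells answer oxidants and tumour necrosis factor (TNF). Each gene was read by 1 identified probe of a liver expression array, found by the NCBI Gene ID in the probe's name. These were 4 of the 24048 probes. Of those, 15155 could not be named, so further probes of the 4 genes may be among them. The livers were those of 8 males at 23 weeks of age, 4 labelled Gpx3 transgenic and 4 labelled B6/DBA wildtype, with 1 array per animal. Chow held 4% fat until week 11 of life and 6% fat from then on, for all 8. Gpx3 encodes a secreted glutathione peroxidase that removes peroxides outside cells. The promoter of the transgene, the number of founder lines and whether wildtype animals were littermates are not given in the sources used here. Because no Gpx3 probe was identified, the transgene could not serve as a check of the labels. The genes were chosen with the difference between transgenic and wildtype livers on these arrays already known, so their values in that comparison are a description and carry no test.

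MAP3K5, also called ASK1, is a kinase that reduced thioredoxin holds inactive; oxidation of thioredoxin releases it, and it then drives the JNK and p38 kinases. RIPK1 is recruited to the TNF receptor, where ubiquitin chains built on it gather the kinases that start NF-kB signalling; without those chains it can drive cell death together with caspase 8. IKBKG, also called NEMO, is the regulatory subunit of the IκB kinase and binds those chains. TNIP1, also called ABIN-1, binds the same chains and the editing enzyme A20 and restrains both NF-kB and cell death. In mouse liver, loss of NEMO from hepatocytes is known to cause steatohepatitis, and ASK1 is known for its part in injury by oxidants.

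The stretches before the first annotated starts of Ikbkg and Tnip1 are shown because they hold motifs of the factors at the end of these pathways. They come from RefSeq tables of build GRCm38.p6, run 5′ to 3′ on the gene's strand and stop where the gene's annotated span begins. Capitals mark an AP-1 motif in Ikbkg (chrX:74393041-74393232, plus strand) and κB consensus motifs in Tnip1 (chr11:54962957-54963190, minus strand).
Ikbkg: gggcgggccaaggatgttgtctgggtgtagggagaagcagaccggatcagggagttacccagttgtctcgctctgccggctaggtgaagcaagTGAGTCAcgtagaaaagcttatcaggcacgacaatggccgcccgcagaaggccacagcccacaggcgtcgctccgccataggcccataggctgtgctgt
Tnip1: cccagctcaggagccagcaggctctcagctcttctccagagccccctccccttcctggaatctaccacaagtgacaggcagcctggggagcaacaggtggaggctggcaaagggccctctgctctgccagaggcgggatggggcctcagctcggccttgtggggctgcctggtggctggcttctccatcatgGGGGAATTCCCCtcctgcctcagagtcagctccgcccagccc

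The search covered the 250 bases before each annotated start, on both strands, for AP-1 (TGANTCA), for the core of the antioxidant response element (TGACNNNGC) and for the κB consensus. AP-1 is the dimer that contains JUN, the substrate of JNK. Of the 8 starts annotated for the 4 genes, 4 had at least 1 match. Tnip1 held 3 overlapping κB matches, from 58 to 47 bases before its start. Ikbkg held an AP-1 match before 3 of its 4 starts, and at its second start that match overlapped an antioxidant element match. The single window of Map3k5 and both windows of Ripk1 held none of the 3 motifs. Of 32851 windows of this length in the table, 3.90% held the κB consensus, 6.75% the AP-1 motif and 10.2% the antioxidant element core. The share of windows with any of the 3 motifs was not computed, so nothing is read from the count of 4 in 8 starts. A match describes the letters only.

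Of the 4 probes, Map3k5 and Ikbkg separated the groups, in opposite directions. Mean Map3k5 signal was 1.5-fold higher in transgenic livers, and mean Ikbkg signal was 1.40-fold higher in wildtype livers. Ripk1 was 1.28-fold higher in transgenic livers with groups that touched, and Tnip1 was 1.17-fold higher with groups that overlapped widely. These folds come from log2 signals after values below 16 units, the floor, were set to 16. All 4 probes lay above that floor on all 8 arrays and were among the 14759 probes kept for testing. Groups did not overlap at 2 of the 4 probes, 1 higher and 1 lower in transgenic livers. Among all probes tested 3.56% did not overlap, 1.73% higher and 1.83% lower, but the genes were picked from this comparison and nothing is read from that count.

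**Figure D1:**
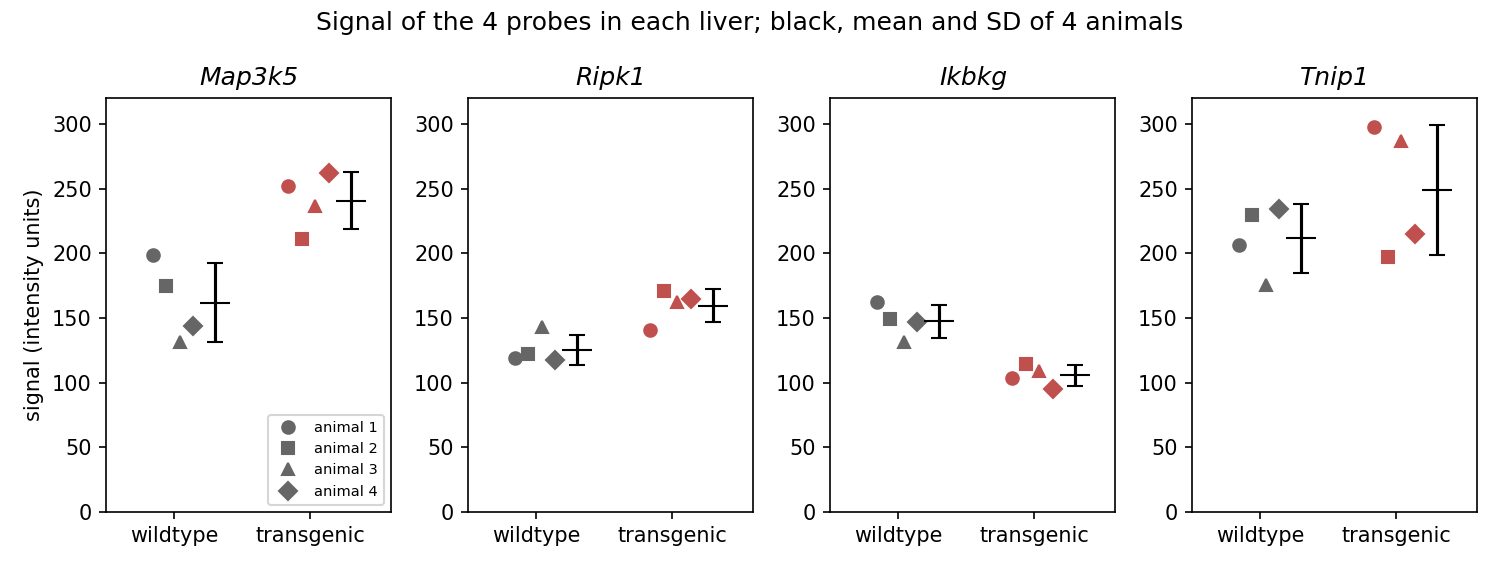
Signal of the 4 probes in intensity units for each of the 4 wildtype and 4 transgenic livers, with the mean and SD of each group in black; animal numbers do not pair animals across groups. Map3k5 lies between 211 and 262 units in transgenic and between 131 and 198 units in wildtype livers, and Ikbkg between 95.4 and 114 against 131 and 163 units.

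The redox-sensitive kinase gene Map3k5 read 251.6, 211.2, 236.8 and 262.0 units in transgenic animals 1 to 4. It read 198.3, 174.5, 131.1 and 143.4 units in wildtype animals 1 to 4. Every transgenic liver lay above every wildtype liver, with 12.9 units between the lowest transgenic and the highest wildtype animal. The means were 240 ± 22.0 and 162 ± 30.4 units (SD, n = 4 each). The log2 fold change was 0.59 ± 0.14 (SE), or 2.74 times the pooled SD within groups. Wildtype animals varied more, with a coefficient of variation of 18.8% against 9.17%.

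Ripk1, the scaffold kinase of the TNF receptor complex, read 140.8, 170.5, 162.3 and 164.7 units in transgenic animals 1 to 4. Wildtype animals read 119.0, 121.7, 142.6 and 117.4 units. Transgenic animal 1 lay below wildtype animal 3 by 1.80 units, and the other 3 transgenic livers lay above every wildtype liver. The means were 160 ± 13.0 and 125 ± 11.8 units (SD, n = 4 each). They differed by 0.35 ± 0.10 (SE) on the log2 scale, 2.79 times the pooled SD. Wildtype animal 3 stood 20.9 units above the next wildtype liver. Without it the log2 fold change was 0.42 and the groups did not overlap.

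Ikbkg, which encodes NEMO, was the gene with lower signal in transgenic livers. Transgenic animals 1 to 4 read 103.5, 114.0, 109.3 and 95.4 units, and wildtype animals 1 to 4 read 162.6, 149.1, 131.4 and 147.2 units. Every transgenic liver lay below every wildtype liver, and 17.4 units separated the groups. The means were 106 ± 8.01 and 148 ± 12.8 units (SD, n = 4 each). Its log2 fold change of -0.48 ± 0.09 (SE) was -4.06 times the pooled SD, the farthest from 0 of the 4 genes on that scale. Spread within groups was similar, with coefficients of variation of 7.59% and 8.66%.

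Tnip1, the ubiquitin-binding restraint on NF-kB, read 297.5, 197.4, 286.5 and 215.1 units in transgenic animals 1 to 4. Wildtype animals read 206.2, 229.6, 175.6 and 234.5 units. Transgenic animals 1 and 3 lay above every wildtype liver, while transgenic animals 2 and 4 lay inside the wildtype range. The means were 249 ± 50.2 and 211 ± 26.9 units (SD, n = 4 each). The log2 fold change of 0.22 ± 0.16 (SE) was smaller than the pooled SD, at 0.90 times it. In the RefSeq gene table of assembly GRCm38.p6, Tnip1 is the next protein-coding gene to Gpx3 on chromosome 11. Of the 6 protein-coding genes on each side of Gpx3, Tnip1 was the 1 gene with a named probe, so its neighbours were not analysed here.

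The ratio of 2 probes on the same array does not depend on array brightness where brightness multiplies all signals alike. Background left on an array could still change it. Relative to the wildtype mean of the same ratio, Map3k5 over Ikbkg was 2.23, 1.70, 1.99 and 2.52 in transgenic animals 1 to 4. In wildtype animals it was 1.12, 1.07, 0.915 and 0.893. The ratio averaged 2.11 ± 0.349 in transgenic livers, beside an SD of 0.113 around the wildtype mean (n = 4 each), and the groups did not overlap. Ripk1 over Ikbkg averaged 1.77 ± 0.178 in transgenic livers, beside a wildtype SD of 0.182, again without overlap. Ikbkg over Tnip1 averaged 0.622 ± 0.144, beside a wildtype SD of 0.110, and did not overlap either, although Tnip1 alone did. The 3 ratios among Map3k5, Ripk1 and Tnip1 overlapped between groups, while those that hold Ikbkg, the gene with lower transgenic signal, did not. Map3k5 over Ikbkg had to separate, because each probe alone separated the groups, in opposite directions. The genes were picked from this comparison, so nothing further is read from the ratios.

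**Figure D2:**
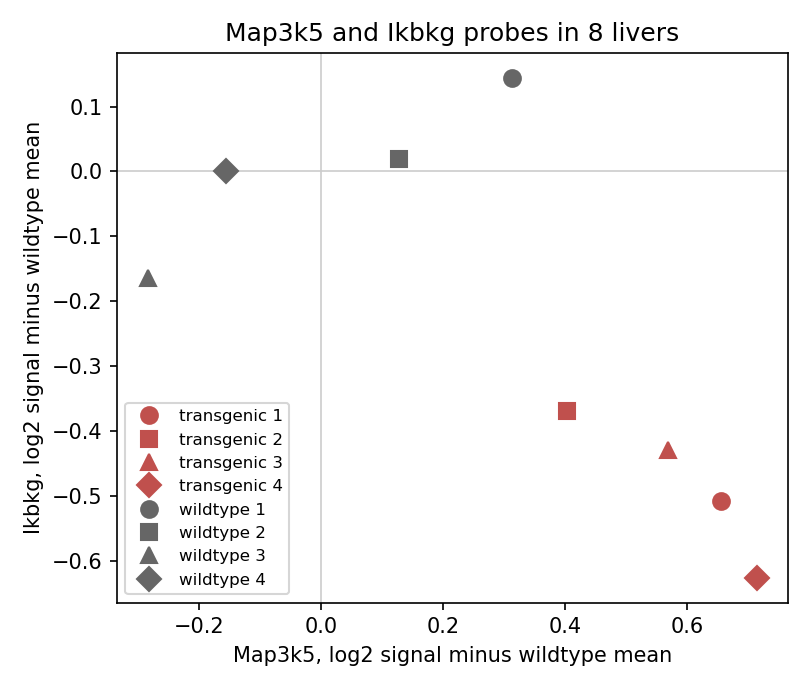
Log2 signal of Map3k5 (x axis) and Ikbkg (y axis) in each of 8 livers, each minus the mean of the 4 wildtype livers. Transgenic livers lie at 0.40 to 0.71 for Map3k5 and at -0.63 to -0.37 for Ikbkg, apart from the wildtype livers on both axes.

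Within groups, correlations between pairs of the genes took both signs, and 4 animals per group are too few to tell shared from separate variation. In the plot of Map3k5 against Ikbkg, the wildtype animals fell in the same order for both genes, with animal 1 highest and animal 3 lowest. The transgenic animals fell in opposite orders, with animal 4 highest for Map3k5 and lowest for Ikbkg. With each group's mean removed, Pearson's r over the 8 livers was 0.34 for that pair, a description of points that share arrays. The farthest value from 0 was that of Ripk1 and Tnip1, at -0.80 (Spearman's rho -0.81). Map3k5 and Ripk1 gave -0.57, Map3k5 and Tnip1 0.33, Ripk1 and Ikbkg -0.35, and Ikbkg and Tnip1 0.21. Map3k5 and Ripk1, which both had higher means in transgenic livers, had a negative r within groups. Wildtype animal 3 weighs on the values that hold Ripk1. It had the highest wildtype Ripk1 signal (142.6 units) and the lowest wildtype Map3k5 and Tnip1 signals (131.1 and 175.6 units). The values of r without that animal were not computed, so nothing further is read from their signs.

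Among 3529 other named probes above the floor on all 8 arrays, few tracked each gene closely over the 8 livers. Pearson's r reached 0.90 at 4 probes for Map3k5, 8 for Ripk1, 9 for Ikbkg and 12 for Tnip1. The closest to Map3k5 were Cdca7 (r = 0.95), Gpr89 (0.94), a Golgi anion channel, and Helb (0.93), a DNA helicase. The closest to Ripk1 were Glyctk (0.96), which phosphorylates glycerate, Scaf11 (0.96), a splicing factor, and Trip12 (0.91), a ubiquitin ligase. The closest to Ikbkg were Ckb (0.97), the brain-type creatine kinase, Ahnak (0.95), a very large scaffold protein, and Szrd1 (0.95). The closest to Tnip1 were Mtpap (0.97), the mitochondrial poly(A) polymerase, Lims2 (0.95), an adaptor of focal adhesions, and Fbxo42 (0.94). With group means removed, Mtpap remained among the closest 3 for Tnip1 (0.97), while the closest became Gtf2h2 for Map3k5 (0.95), Rbm17 for Ripk1 (0.97), Fads6 for Ikbkg (0.97) and Clec1a for Tnip1 (0.98). These values of r are the highest of many over the same 8 arrays and carry no test.

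The rest of the pathway was described through 7 lists holding 131 genes, of which 45 had a named probe and 34 were tested. None of the 34 passed an adjusted p of 0.05 in limma, in either direction, and none of all 14759 probes did (0.0%). At an unadjusted p under 0.05 there was 1 of 34 (2.94%), against 6.82% of all probes tested. Of the 34 log2 fold changes, 14 were above 0 and 20 below, with a median of -0.03 against -0.02 over all probes. These log2 fold changes, each from the brightest tested probe of its gene, ran from -0.48 to 0.50. The smallest adjusted p among them was 0.644, so every value named from these lists is given without a call. Other probes of the same genes could differ. A second Birc2 probe, at a mean of 25.5 units against 26.7, had -0.52 beside -0.17. A second Fadd probe had -0.04 beside 0.05.

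**Figure D3:**
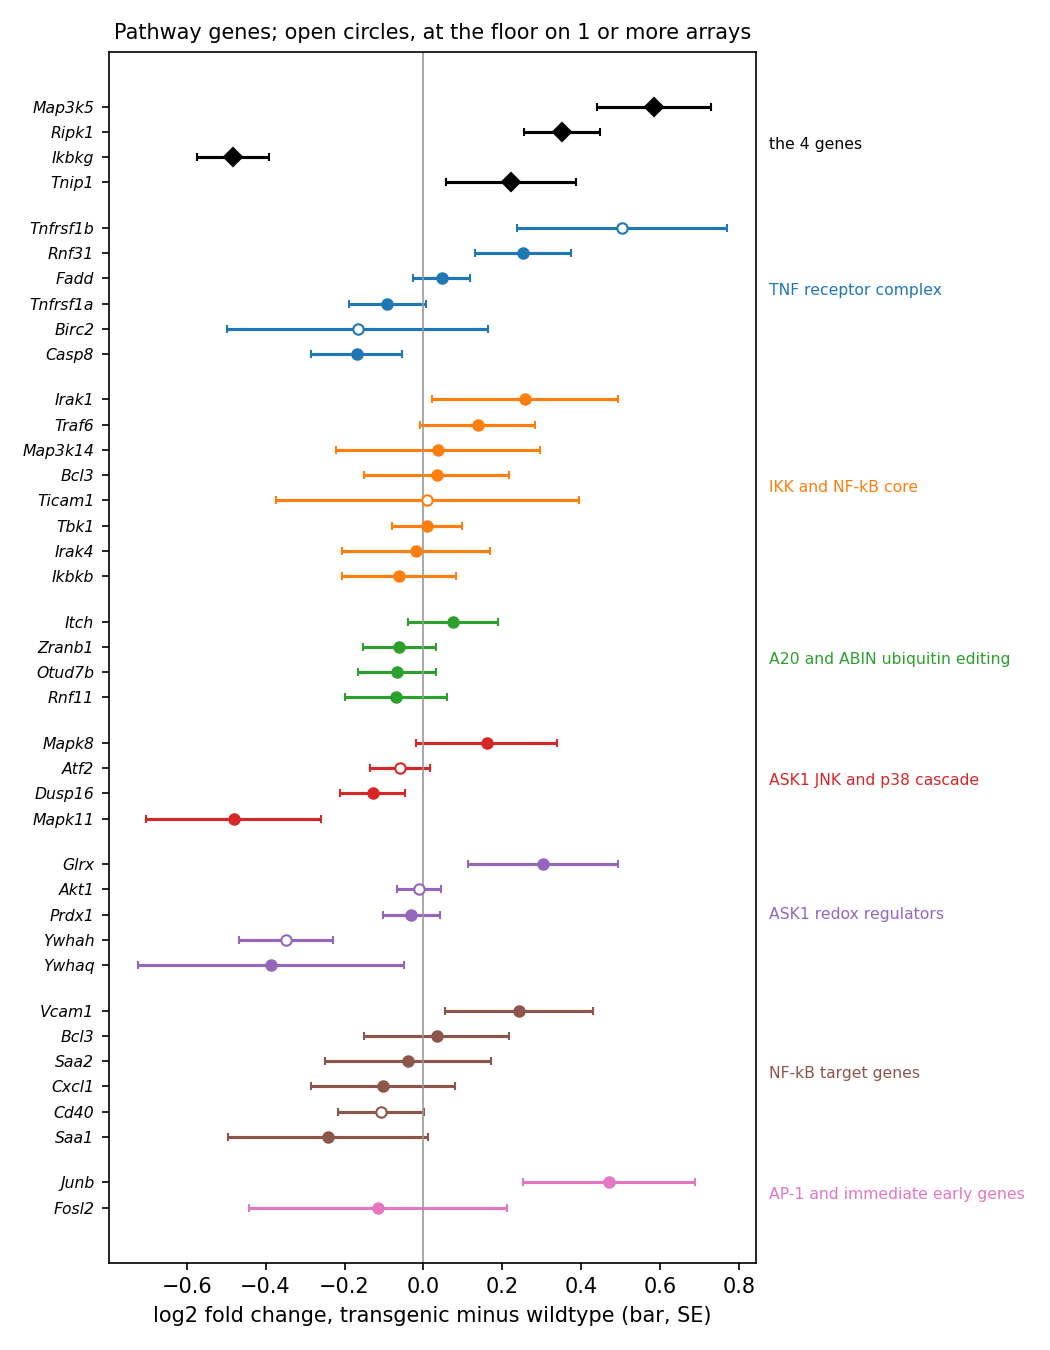
Log2 fold change (transgenic minus wildtype, with SE bars) of the 4 genes as black diamonds and of the tested genes of 7 pathway lists as circles, open where a probe lay at the floor on 1 or more arrays. The listed genes lie between -0.48 and 0.50, and Bcl3 appears in 2 lists.

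In the TNF receptor complex, where RIPK1 acts, 6 of 24 genes were tested, 3 above 0 and 3 below. Tnfrsf1a, the main TNF receptor of most cells, had a mean of 2483 ± 159 units in the transgenic group and of 2655 ± 309 units in the wildtype group (SD, n = 4 each). Rnf31, the catalytic subunit of the ligase that builds linear ubiquitin chains, averaged 234 ± 14.9 against 198 ± 33.0 units, a log2 fold change of 0.25. Casp8, the death protease that also cleaves RIPK1, had a log2 fold change of -0.17. Tnfrsf1b, the other TNF receptor, had 0.50 with an SE of 0.27 and lay above the floor on 2 of 8 arrays. The median of the 6 was -0.02 and reached 0.03 under other scalings or floors, so it had no settled sign.

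Of the IκB kinase and NF-kB core, 8 of 24 genes were tested, 6 above 0 and 2 below, with a median of 0.02. That median had no settled sign either, from -0.01 without transgenic animal 2 to 0.10 without transgenic animal 1. It was 0.005 without transgenic animal 3, and 0.09, 0.03 and 0.06 without wildtype animals 1, 3 and 4. Ikbkb, the catalytic partner of IKBKG, had means of 201 ± 35.7 units with the transgene and 208 ± 22.5 units without it (SD, n = 4 each). Its log2 fold change was -0.06 ± 0.15 (SE), beside -0.48 ± 0.09 for Ikbkg. Tbk1, a related kinase, averaged 833 ± 83.8 against 825 ± 27.1 units (SD, n = 4 each). Irak1 and Traf6, which carry signals from interleukin-1 and Toll-like receptors, had log2 fold changes of 0.26 and 0.14, and Bcl3, a nuclear IκB protein, 0.03.

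Of a list of 9 genes drawn up for ubiquitin editing around A20 and TNIP1, A20 among them, 4 were tested, with a median of -0.06. Without transgenic animal 1 the median was -0.0005, and without wildtype animals 1 and 3 it was -0.04 and -0.02. The ligases Itch and Rnf11 had log2 fold changes of 0.08 and -0.07, and the deubiquitinases Zranb1 and Otud7b -0.06 and -0.07. A second Itch probe had 0.24. A20 itself (Tnfaip3) was not analysed here.

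Downstream of MAP3K5, 4 of 27 genes of the JNK and p38 cascade were tested, 1 above 0 and 3 below. Mapk8, which encodes JNK1, averaged 46.1 ± 10.5 against 40.7 ± 5.81 units, and Mapk11, which encodes p38β, 34.7 ± 10.5 against 47.6 ± 8.72 units (SD, n = 4 each). In limma Mapk11 had an adjusted p of 0.754, at -0.48 on the log2 scale (SE 0.22). Dusp16, a phosphatase that inactivates JNK, had -0.13, and Atf2, a substrate of both kinases, was above the floor on 1 array. Upstream, 5 of 17 redox and scaffold regulators of MAP3K5 were tested. The glutaredoxin Glrx differed by 0.30 on the log2 scale and the peroxiredoxin Prdx1 -0.03, at 17067 ± 807 against 17442 ± 976 units (SD, n = 4 each). The 14-3-3 proteins, which bind and restrain MAP3K5, were represented by Ywhaq (-0.39, SE 0.34) and Ywhah (-0.35). Ywhah was the 1 gene with an unadjusted p under 0.05, and its signals lay around the floor, at 5.55 ± 6.44 against 20.6 ± 3.41 units.

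Among 27 NF-kB target genes, 6 were tested, 2 above 0 and 4 below, with a median of -0.07. That median had no settled sign: it was -0.18 without transgenic animal 2, -0.11 without wildtype animal 1 and 0.02 without transgenic animal 4. It was -0.03 without transgenic animal 1 and without wildtype animal 3. The acute-phase gene Saa1 had means of 743 ± 303 units with the transgene and 840 ± 113 units without it, and the chemokine Cxcl1 615 ± 171 against 645 ± 56.8 units (SD, n = 4 each). Vcam1, an adhesion molecule, had a log2 fold change of 0.24, and Cd40 lay above the floor on 1 array. Of 13 AP-1 and immediate early genes 2 were tested. Junb, an AP-1 subunit, averaged 275 ± 76.8 against 194 ± 32.9 units (SD, n = 4 each). In limma its adjusted p was 0.754, at 0.47 on the log2 scale (SE 0.22). Fosl2 had -0.12.

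Markers of the liver's cell types were set beside these values, since in bulk tissue fewer cells of a type and less RNA per cell cannot be told apart. The 2 of 8 hepatocyte markers with a probe, Apoa1 and Serpina1a, summed to 41711 to 47221 units in transgenic and 43618 to 46440 units in wildtype livers. Summed over 4 of 11 markers, macrophage signal was 482 to 879 against 521 to 900 units, with 3 of the 4 log2 fold changes below 0 and a median of -0.07. Endothelial signal (4 of 8 markers) was 3517 to 4294 against 3746 to 4501 units, and all 4 log2 fold changes were below 0, with a median of -0.40. Clec4g, by far the brightest of them, had -0.06 ± 0.09 (SE), Egfl7 -0.31, Emcn -0.48, and Pecam1, at the floor on 1 array, -1.04 with an SE of 0.57. Stellate cell signal (5 of 7 markers) was 7197 to 8040 against 7508 to 8041 units, with a median log2 fold change of -0.03 over the 4 tested. Lrat, which stores vitamin A as esters, had -0.46 with groups that did not overlap, while Dcn had -0.03, Reln -0.03 and Col1a2, above the floor on 1 array, 0.07. Cholangiocyte signal (2 of 5 markers) was 168 to 255 against 179 to 247 units. The 1 lymphocyte marker, Cd3e, read 26.4 units at most, and 4 of 6 neutrophil markers summed to 81.5 units at most. Mpo, Col1a1 and Krt19 lay at or below the floor on all 8 arrays, and both Lyz2 probes did so on all arrays but wildtype 1, where 1 of them read 20.6 units. The endothelial list thus had a lower median in transgenic livers beside the lower signal of Ikbkg, and its part in that value was not tested.

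**Figure D4:**
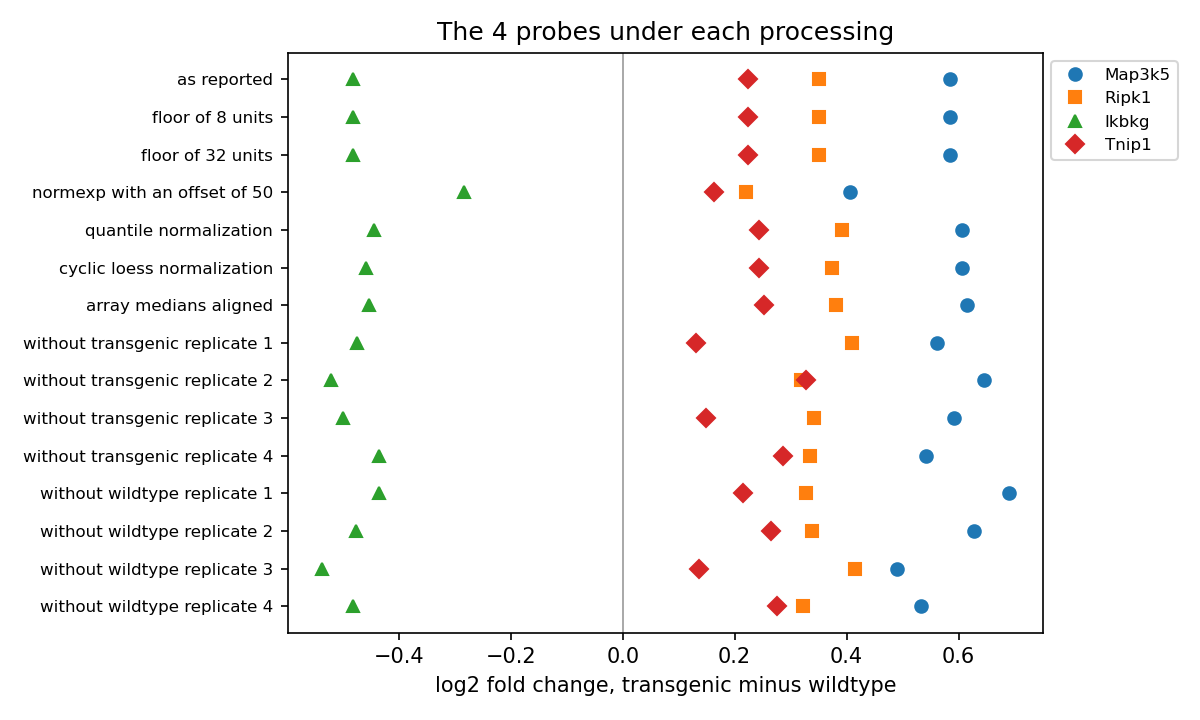
Log2 fold change (transgenic minus wildtype) of the 4 probes as reported, under 6 other floors, background corrections or scalings, and with each array left out. Ikbkg stays below 0 and Map3k5, Ripk1 and Tnip1 above 0 in all 15 processings, which include the floors of 8 and 32 units that could not move these probes, with Map3k5, Ripk1 and Ikbkg closest to 0 after normexp correction.

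As the plot over processings shows, the 4 probes kept their signs in each of the 14 alternatives run. The other floors, 8 and 32 units, could not move them, because their lowest signal was 95.4 units. Leaving out 1 array could not turn the sign of Map3k5 or Ikbkg, because their groups did not overlap. Map3k5 ranged from 0.41 to 0.69, Ripk1 from 0.22 to 0.42, Ikbkg from -0.54 to -0.28 and Tnip1 from 0.13 to 0.33. Map3k5 and Ikbkg also kept groups that did not overlap in all 5 scalings and corrections examined, the reported one among them. Ripk1 had such groups in 2 of the 5, quantile normalization and normexp, and Tnip1 in 0. The genes were picked from this comparison and the arrays are the same, so nothing further is read from these counts. Transgenic animal 4 carries another title stem than transgenic animals 1 to 3, with no meaning stated. Without it the log2 fold changes were 0.54 for Map3k5, 0.33 for Ripk1, -0.44 for Ikbkg and 0.29 for Tnip1.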

How the data were processed

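The values the authors deposited are intensities of 1-colour Illumina bead arrays, linear and with background removed. BeadStudio 1.5.1.3 is named in the submitters' processing notes. The background method and any scaling between arrays are not given in the sources used here. Median signal per array was 11.0 to 14.2 units, with 33.1% to 35.3% of values below 0. A second table without normalization, per the file headers, has 64 value columns that no label ties to an animal, and was not used.

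Probes were named through the NCBI Gene ID in their names; 8884 of 9523 such numbers (93.3%) were in the RefSeq table of GRCm38.p6. Values below 16 were set to 16 and log2 was taken. Probes with a mean log2 signal above the lower quartile were tested (14759) with limma 3.58.1 in R 4.3.3, two-sided, with Benjamini-Hochberg adjustment. The test was also run on simulated data with independent noise, and the outcome of that run is not given here. The brightest tested probe stood for a gene of a list.

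Animals were numbered in order of deposition. All p-values reflect the spread among these 8 animals alone. Members and lists were chosen with earlier results of these data known. The text names all 4 members, up to 4 genes of smallest p and the brightest gene per list, and the 3 probes most like each member over all livers; with group means removed, the closest 1 is named, and Mtpap. Of the markers, those named were chosen after their values were seen. Alternatives were other floors, filters, corrections, scalings and variance models, and leaving out each array.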

Additional observations from a re-analysis of the deposited data

Results flagged for a closer look

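Ripk1 in wildtype animal 3 read 142.6 units, far from the other wildtype livers at 117.4 to 121.7 units. Its gap to the nearest, divided by the group's range, was 0.829 and passed Dixon's 95% critical value for 4 samples, also 0.829, by less than the rounding shown. Of the 8 groups examined, 4 genes in 2 groups, this was the 1 that passed, and chance passes about 1 group in 20. The same animal had the lowest wildtype signal of Map3k5 (131.1), Ikbkg (131.4) and Tnip1 (175.6).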

How the results depend on the processing

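No paired analysis was possible because the labels give no replicate number that the groups share. The log2 fold changes of Map3k5 and Tnip1 moved by less than 1 SD within groups in all 14 alternatives, of which the floors of 8 and 32 units could not move them. After normexp with an offset of 50 those of Ripk1 and Ikbkg came nearer 0, at 0.22 and -0.28; correction and offset were changed together, and the cause was not tested. Probes past the adjusted threshold numbered 0 as reported, 1 with a floor of 32 units, 2 after normexp, 1 after quantile normalization, 1 with array medians aligned, 2 with a trend and robust prior, and 0 to 1 when 1 array was left out. None of them was an identified probe of the 4 genes, but several had no name. No named probe of a pathway gene passed under any alternative. With a floor of 8 units the medians of the JNK and p38 list and of the redox regulator list were both -0.26, against -0.09 and -0.03. Each of these lists holds a tested gene above 16 units on only 1 array, whose log2 fold change depends on the floor. The medians at the lower floor are therefore not read as a shift of the lists. The TNF receptor list ranged from -0.045 to 0.038 when 1 array was left out. The redox regulator list ranged from -0.07 to -0.01 in the same fits. The number of arrays, 4 per group, limits precision.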
